A study of Mus musculus with 12 samples.

Results

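The 7 genes described here belong to the endocytic machinery of the suckling ileum: Cubn, Amn and Lrp2 encode uptake receptors, Dab2 an adaptor, Mamdc4 an endosomal protein, Fcgrt the receptor for maternal IgG, and Prdm1 a transcriptional regulator of the suckling enterocyte. They were taken by name from a deposited table of 35275 genes, and all 7 were found and were abundant enough to be tested in both statistical fits used below. The RNA was total RNA of whole ileum, where the small intestine ends, from C57BL/6 mouse pups on postnatal day 14. Stressed males and stressed females were offspring of 3 dams that had been kept in a ventilated tube for 2 h daily between gestational days 7 and 19. Control males and control females were offspring of 3 dams that stayed undisturbed in their home cages. Each dam gave 1 male and 1 female pup, so there were 4 groups of 3 libraries and 12 libraries in all, and the number of a pup is the number of its dam within its group. "Stressed" refers to the dam, since the pups themselves were not restrained. The question of the design is whether prenatal stress alters gene expression in the ileum of the offspring.

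Before weaning, the enterocytes of the distal small intestine of rodents take up milk proteins whole. Receptors on the apical membrane bind the proteins, clathrin adaptors draw the receptors into coated pits, and the cargo passes through an apical network of tubules and endosomes to a giant lysosomal vacuole, where it is digested. Cubilin and amnionless are subunits of a single receptor that in the ileum also binds vitamin B12 with intrinsic factor, megalin (Lrp2) is its giant partner in the kidney, and the neonatal Fc receptor carries IgG across the epithelium of the small intestine. At weaning this apparatus is lost, and Blimp1, the product of Prdm1, is known in mice to hold the epithelium in its suckling state.

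The libraries held between 16423523 and 20075567 counted reads in males and between 20730243 and 22975526 in females. All 10 enterocyte markers looked for (among them Vil1, Cdh1 and Hnf4a) were present in every group, with a summed level of 2643 to 3988 FPKM, a level scaled by gene length and by the library's total of counted reads. Both pups of control dam 3 stood apart: 6 markers of the upper small intestine summed to 5069 FPKM in control male 3 and 1520 FPKM in control female 3, against 166 to 454 FPKM in the 10 other libraries. Ileal markers (6 of 6 found) were lowest in control male 3, with a sum of 244 FPKM, and stood at 572 FPKM in control female 3, against 314 to 1803 FPKM in the others. Their median deviation from the mean of 12 libraries (log2) was -2.49 in control male 3 and 0.10 in control female 3, against -0.60 to 0.98 in the others. Fabp6, the ileal bile acid carrier, was at 1.31 FPKM in control male 3 and 121 FPKM in control female 3, against 62.2 to 1303 FPKM elsewhere. The amino acid transporter Slc6a14 was at 0.0332 and 1.77 FPKM, against 17.0 to 32.4 FPKM. Both were picked from the 6 ileal markers after their values were seen. The other ileal markers are given only within the sum and the median. In 3 male libraries transcripts of long genes were relatively high. Genes of at least 8 kb lay by a median of 0.44 (log2) above their mean of 12 libraries in stressed male 1, 0.69 above in stressed male 3 and 0.16 above in control male 1, and genes under 2 kb lay 0.21, 0.31 and 0.08 below. In the 9 other libraries the median for long genes ran from -0.34 to 0.07, and that for short genes from -0.10 to 0.21. Control male 1 was thus within the range of the others for short genes. These 3 libraries also held most Yam1 RNA, at 7578 FPKM, 22574 FPKM and 5468 FPKM against 933 to 2730 FPKM in the others. In whole tissue, fewer cells of a type and less RNA per cell cannot be told apart.

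In the files' coordinates, which per the submitters' processing notes are those of build GRCm38, Cubn (ENSMUSG00000026726) spans chr2:13276338-13491924 on the minus strand and Amn (ENSMUSG00000021278) chr12:111271111-111276426 on the plus strand. Lrp2 (ENSMUSG00000027070) lies at chr2:69424340-69586065 and Mamdc4 (ENSMUSG00000026941) at chr2:25563115-25574845, both on the minus strand. Dab2 (ENSMUSG00000022150) lies at chr15:6299788-6440712 on the plus strand. Fcgrt (ENSMUSG00000003420) at chr7:45092993-45103822 and Prdm1 (ENSMUSG00000038151) at chr10:44437177-44528501 are on the minus strand. The lengths that the authors used for FPKM are 15460 bases for Lrp2, 11373 for Cubn, 5281 for Prdm1, 4663 for Dab2, 3998 for Mamdc4, 1738 for Fcgrt and 1685 for Amn. The receptor Cubn is thus a long transcript and its partner Amn a short one.

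Promoters are printed for 4 genes that the results treat closely. Cubn and Amn were taken as the partners in the cubilin receptor, and Mamdc4 as a gene whose profile ran near that of Amn. Fcgrt was taken as the gene with the widest range between libraries. A link between promoter sequence and level was not tested. Each sequence holds 250 bases before and 50 bases after the RefSeq start site (build GRCm38.p6), 5′ to 3′ on the gene's strand, at chr2:13491827-13492126 (Cubn, minus), chr12:111270846-111271145 (Amn, plus), chr2:25571267-25571566 (Mamdc4, minus) and chr7:45103773-45104072 (Fcgrt, minus). Capitals mark matches to any of 6 motifs searched.
Cubn: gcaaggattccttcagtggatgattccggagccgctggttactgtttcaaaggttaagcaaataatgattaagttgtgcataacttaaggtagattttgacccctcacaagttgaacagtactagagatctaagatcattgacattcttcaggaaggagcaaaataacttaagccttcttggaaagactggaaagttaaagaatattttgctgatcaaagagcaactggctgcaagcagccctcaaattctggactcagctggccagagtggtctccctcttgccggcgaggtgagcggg
Amn: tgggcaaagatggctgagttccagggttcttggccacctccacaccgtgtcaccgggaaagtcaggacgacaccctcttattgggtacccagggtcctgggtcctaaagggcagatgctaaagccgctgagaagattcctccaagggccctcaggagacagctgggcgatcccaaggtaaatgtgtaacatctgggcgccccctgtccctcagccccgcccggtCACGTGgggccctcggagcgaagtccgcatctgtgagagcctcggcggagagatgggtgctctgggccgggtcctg
Mamdc4: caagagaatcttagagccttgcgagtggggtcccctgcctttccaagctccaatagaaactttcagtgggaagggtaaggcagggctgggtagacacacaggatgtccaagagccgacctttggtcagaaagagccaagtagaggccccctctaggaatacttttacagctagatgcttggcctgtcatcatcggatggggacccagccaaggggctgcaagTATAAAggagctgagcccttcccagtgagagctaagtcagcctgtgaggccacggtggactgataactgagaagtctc
Fcgrt: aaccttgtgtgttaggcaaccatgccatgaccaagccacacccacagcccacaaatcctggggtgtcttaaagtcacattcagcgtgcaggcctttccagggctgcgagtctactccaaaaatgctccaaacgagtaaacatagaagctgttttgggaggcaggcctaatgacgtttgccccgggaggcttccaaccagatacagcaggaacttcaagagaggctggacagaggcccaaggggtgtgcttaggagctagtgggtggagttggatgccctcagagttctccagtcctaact
The motifs were AGATAA for the GATA family, CAAAGTC for HNF4, TTTATNG for CDX2, CACGTG as E-box, GAAAGTG as the core of PRDM1 sites and TATAAA as core promoter box, read on both strands, and no matches overlapped. Amn held the E-box, from base -26, and Mamdc4 held TATAAA, from base -28, counted from the start site, while these windows of Cubn and Fcgrt held none of the 6. Of 32851 mouse promoters of the same length, 7.15% held CACGTG and 13.6% held TATAAA. The share was 11.2% for AGATAA, 4.44% for CAAAGTC, 10.9% for TTTATNG and 4.81% for GAAAGTG. The first of 2 Dab2 promoters held AGATAA on the minus strand from base 15, and the second Dab2 promoter, that of Prdm1 and that of Lrp2 held none. The G and C content was 44.3% in the Cubn promoter, 62.3% in that of Amn, 53.7% in that of Mamdc4 and 53.3% in that of Fcgrt, against a median of 52.7% over all promoters. The RefSeq start site of Mamdc4 lies 3529 bases inside the span the files give for the gene.

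Levels of the 7 genes differed widely. By mean FPKM over the 12 libraries the order was Fcgrt (637 FPKM, rank 81 of all genes), Mamdc4 (587 FPKM, rank 91), Amn (194 FPKM, rank 307), Dab2 (149 FPKM, rank 407), Cubn (59.2 FPKM, rank 1221), Prdm1 (24.96 FPKM, rank 2964) and Lrp2 (0.788 FPKM, rank 13714). Most neighbours in this order were separated in every library: Mamdc4 was above Amn, Dab2 above Cubn, Cubn above Prdm1 and Prdm1 above Lrp2 in 12 of 12. Amn and Dab2 were not, with Amn above in 9 of 12 libraries. The first place of Fcgrt rested on control dam 3: Fcgrt exceeded Mamdc4 in 3 of 12 libraries, and in 1 of the 10 libraries without that dam.

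**Figure D1:**
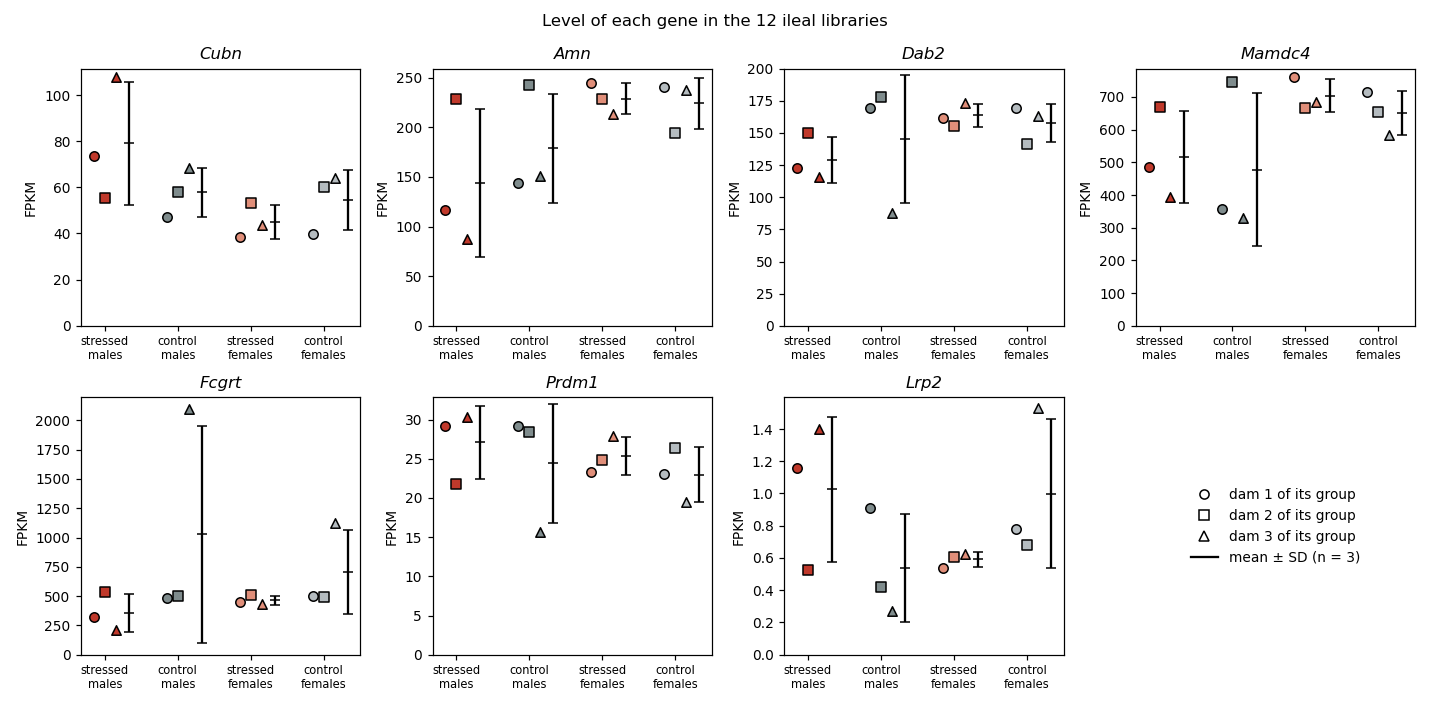
FPKM of the 7 genes (1 panel each, linear axis from 0) in each of the 12 libraries; symbols give the dam within its group, and the bar beside each group is its mean ± SD (n = 3). The triangles of control males and control females stand far above all other Fcgrt values, at 2095 and 1120.4 FPKM, and most other groups overlap.

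Cubn, the ligand-binding subunit of the cubilin receptor, stood at 73.7, 55.6 and 108 FPKM in stressed males 1 to 3, against 47.2, 58.0 and 68.2 FPKM in control males 1 to 3. In females it stood at 38.5, 53.1 and 43.9 FPKM in stressed pups, against 39.8, 60.0 and 63.9 FPKM in controls. By FPKM, stressed males 1 and 3 were the highest of all 12 libraries, stressed male 2 lay within the control range, and the groups overlapped in both sexes. The place of stressed male 1 depended on the scaling. In CPM with TMM scaling, control male 3 (886 CPM) lay above stressed male 1 (847 CPM) and below stressed male 3 (1281 CPM). The log2 fold change of stressed over control was 0.41 ± 0.30 (SE) in males and -0.32 ± 0.30 in females, neither of which passed (edgeR adjusted p = 0.786 in males and 1 in females). Stressed males 1 and 3 were among the libraries rich in long transcripts, and control male 3 was not. Control male 1 was also among them, yet had the lowest Cubn level of the 6 males (47.2 FPKM). With each library corrected for its trend with gene length, the value in males was -0.01 ± 0.26. Without the 3 Yam1-rich libraries, which leaves 1 stressed male, the value was -0.32. The part of the length trend in the Cubn values was not tested.

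Amn, the membrane anchor without which cubilin does not reach the cell surface, stood at 117, 228 and 87.1 FPKM in stressed males, against 144, 242 and 151 FPKM in control males. Its levels were 245, 229 and 213 FPKM in stressed females, against 241, 194 and 238 FPKM in control females. Males 1 and 3 of either treatment lay below all 6 females, and the treatments overlapped in each sex. In log2 terms the change was -0.36 ± 0.29 in males and -0.01 ± 0.29 in females, and neither passed (edgeR adjusted p = 0.798 and 1). Per length of transcript, Amn exceeded Cubn in 11 of 12 libraries, with an Amn to Cubn ratio of FPKM values between 0.806 (stressed male 3) and 6.34 (stressed female 1) and a median of 3.91. Among males this ratio averaged 2.16 ± 1.72 with stress and 3.14 ± 0.989 without (SD, n = 3 each). Among females it averaged 5.17 ± 1.05 with stress and 4.33 ± 1.505 without (SD, n = 3 each).

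Lrp2, the large receptor of the proximal tubule of the kidney, was barely present in this ileum, with 74 to 530 reads per library and 0.273 to 1.53 FPKM. It stood at 1.16, 0.525 and 1.398 FPKM in stressed males, against 0.913, 0.420 and 0.273 FPKM in control males. In females it stood at 0.539, 0.606 and 0.627 FPKM in stressed pups, against 0.783, 0.683 and 1.53 FPKM in controls. Stressed females lay below control females without overlap, the one instance among the 7 genes in either sex or over dams, while the male groups overlapped. Of all genes tested, 5.56% did not overlap in females, 5.67% in males and 5.27% over dams. The log2 fold change was 0.93 ± 0.47 in males and -0.81 ± 0.47 in females, and the difference between these, 1.75 ± 0.66, did not pass (edgeR adjusted p = 0.999). Both ends of the control range were pups of control dam 3, the lowest male and the highest female; without that dam the changes were 0.65 ± 0.42 in males and -0.31 ± 0.41 in females, and their difference was 0.96 ± 0.59. With length correction the difference was 1.19 ± 0.54, and with both it was 0.32 ± 0.30. Cubn exceeded Lrp2 by 41.8 to 250.2 times per length of transcript, with a median of 74.4 times.

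Dab2, the clathrin adaptor that binds the tails of this receptor family, stood at 123, 150 and 116 FPKM in stressed males, against 169, 178 and 87.8 FPKM in control males. In stressed females it stood at 162, 156 and 174 FPKM, against 170, 141 and 163 FPKM in control females. The 3 stressed males lay below control males 1 and 2 and above control male 3, and the female groups overlapped closely. On the log2 scale stressed over control was -0.19 ± 0.20 in males and 0.01 ± 0.20 in females (edgeR adjusted p = 0.854 and 1). Without control dam 3 the value in males was -0.41 ± 0.15, still not past the threshold (edgeR adjusted p = 0.774). Dab2 is also made by macrophages and vessel cells in mice. Macrophage markers (8 of 9 found, none at 0 in all libraries) summed to 78.1 to 143 FPKM in stressed males and 62.0 to 140.1 FPKM in control males. Endothelial markers (8 of 8 found, none at 0) summed to 79.3 to 97.4 FPKM in stressed males, below the 98.6 to 107 FPKM of control males. In females these sums overlapped, at 91.2 to 97.3 FPKM with stress and 94.2 to 105 FPKM without. Control male 3, lowest for Dab2, had sums of 103 FPKM for endothelial and 140.1 FPKM for macrophage markers. The part of either cell type in the Dab2 values was not tested.

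Mamdc4, which encodes endotubin, a protein of the apical endosomal tubules of the suckling enterocyte first described in rats, stood at 485, 669 and 395 FPKM in stressed males, against 356, 747 and 331 FPKM in control males. Its levels were 761, 667 and 684 FPKM in stressed females, against 715, 655 and 583 FPKM in control females. Male 2 of each treatment matched the females, and males 1 and 3 of each treatment were lower than all females. Stressed over control was 0.08 ± 0.27 on the log2 scale in both sexes (edgeR adjusted p = 0.964 in males and 1 in females). Within females the level varied little, with 704 ± 50.1 FPKM in stressed and 651 ± 66.4 FPKM in control pups (SD, n = 3 each).

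Fcgrt, the heavy chain of the neonatal Fc receptor, stood at 324, 534 and 208 FPKM in stressed males, against 482, 502 and 2095 FPKM in control males. In females it stood at 447, 507 and 433 FPKM in stressed pups, against 500.1, 495 and 1120.4 FPKM in controls. The highest 2 libraries were the male and the female of control dam 3, and the lowest was stressed male 3. The 4 other control pups lay between 482 and 502 FPKM (495 ± 8.92 FPKM, SD, n = 4), with stressed pups on both sides of them. The log2 fold change was -1.66 ± 0.61 in males, -0.67 ± 0.59 in females and -1.12 ± 0.49 over dams, and none passed (edgeR adjusted p = 0.752, 1 and 1.00). Without both pups of control dam 3 these values were -0.46 ± 0.29, -0.10 ± 0.29 and -0.26 ± 0.18. In the same 2 libraries Fabp1, a fatty acid carrier of upper small intestinal enterocytes, reached 2223 FPKM (male) and 290.1 FPKM (female), against 0.270 to 1.19 FPKM elsewhere. The transcription factor Gata4 reached 34.7 and 14.3 FPKM against 0.102 to 1.22 FPKM, and lactase (Lct) 743 and 358 FPKM against 26.1 to 85.0 FPKM. The light chain of the receptor, B2m, which is also part of MHC class I in all cells, was likewise highest there, at 1265 FPKM in control male 3 and 1337 FPKM in control female 3, against 284 to 899 FPKM in the others. The 10 libraries without that dam ran from 208 to 534 FPKM for Fcgrt, with a median of 489 FPKM.

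**Figure D2:**
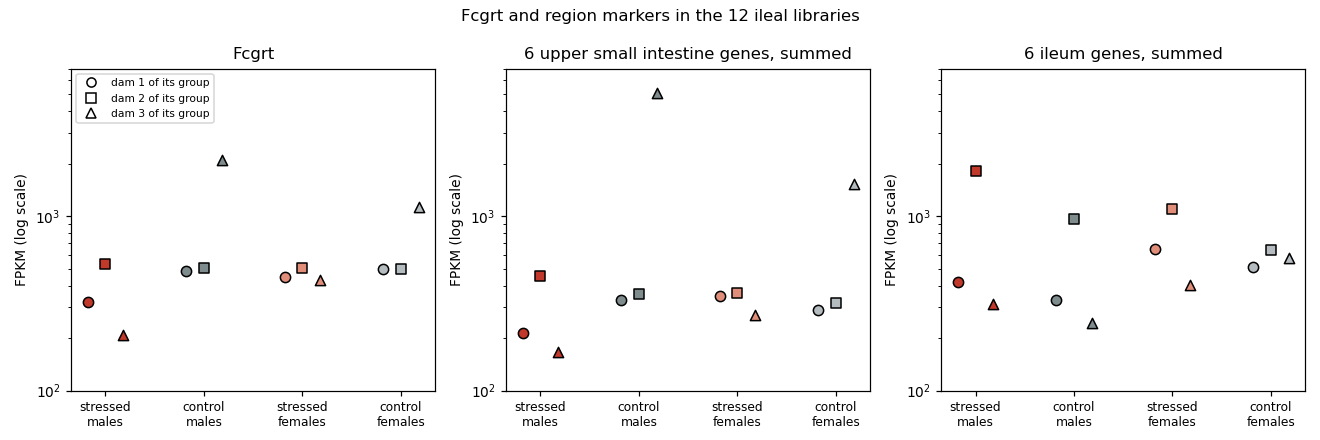
FPKM on a log axis of Fcgrt, of 6 upper small intestine markers summed and of 6 ileum markers summed, in the 12 libraries; symbols give the dam within its group. The 2 pups of control dam 3 (triangles in the control groups) are highest for Fcgrt and for the upper small intestine markers, at 5069 and 1520 FPKM for these markers, and for the sum of ileum markers control male 3 is the lowest library, at 244 FPKM, and control female 3 lies within the range of the others.

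Prdm1, the regulator, stood at 29.2, 21.8 and 30.3 FPKM in stressed males, against 29.1, 28.4 and 15.6 FPKM in control males. Its levels were 23.3, 24.8 and 28.0 FPKM in stressed females, against 23.1, 26.4 and 19.5 FPKM in control females. Control male 3 and control female 3 were the lowest libraries of all, and the groups overlapped. The log2 fold change was 0.13 ± 0.21 in males and 0.11 ± 0.21 in females (edgeR adjusted p = 0.899 and 1), and without control dam 3 it was -0.06 ± 0.19 in males. Plasma and B cells, which also use Prdm1, gave low marker sums (7 of 8 markers found) of 14.5 to 20.9 FPKM in stressed males, 11.1 to 23.03 FPKM in stressed females, 2.22 to 30.8 FPKM in control males and 7.69 to 12.6 FPKM in control females. Control dam 3 had the 2 lowest of these sums, 2.22 FPKM in the male and 7.69 FPKM in the female; their part in the Prdm1 values was not tested.

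None of the 7 genes passed in stressed against control males, in stressed against control females, in the difference between these changes or over dams, where the counts of littermates were summed to compare 3 stressed with 3 control dams. In the background of all genes edgeR called 0% in each of these comparisons (16102 genes tested, 16749 over dams), so the absence of calls among the members is shared with the whole table. At an unadjusted p under 0.05 edgeR had 1 of the 7 in males (Fcgrt), 0 in females, 1 in the difference (Lrp2) and 0 over dams. Over all genes the same level was passed by 1028 (6.38%) in males, 48 (0.298%) in females, 346 (2.15%) in the difference and 228 (1.36%) over dams. DESeq2 had 2, 0, 1 and 0 of the 7 at that level, beside 7.06%, 0.304%, 2.45% and 1.37% of all genes. For limma-voom the counts were 1, 0, 1 and 0, beside 5.39%, 0.329%, 1.78% and 1.21% of all genes. Both tools called none of the 7. The median log2 fold change of the 7 was 0.08 in males, -0.01 in females and -0.06 over dams, beside 0.01, -0.00 and 0.00 over all genes.

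Summing littermates brought the dams of both treatments close together for most of the genes. Cubn stood at 55.4, 54.3 and 71.9 FPKM in the summed pups of stressed dams 1 to 3, against 43.1, 59.0 and 65.8 FPKM for control dams. Amn stood at 183, 228 and 158 FPKM against 197, 218 and 199 FPKM, and Dab2 at 143, 153 and 148 FPKM against 170, 159 and 130.0 FPKM. Mamdc4 gave 629, 668 and 558 FPKM in stressed dams, against 555, 700.2 and 472 FPKM in control dams. Prdm1 gave 26.1, 23.4 and 29.0 FPKM against 25.8, 27.4 and 17.8 FPKM, and Lrp2 0.835, 0.568 and 0.964 FPKM against 0.841, 0.555 and 0.977 FPKM. Treatments overlapped for all 7 genes, and the log2 fold changes other than that of Fcgrt lay between -0.16 ± 0.15 (Amn) and 0.11 ± 0.15 (Prdm1). For Fcgrt the summed values were 388, 520 and 335 FPKM in stressed dams, against 492, 499 and 1549 FPKM in control dams, and the control dam at 1549 FPKM was dam 3.

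**Figure D3:**
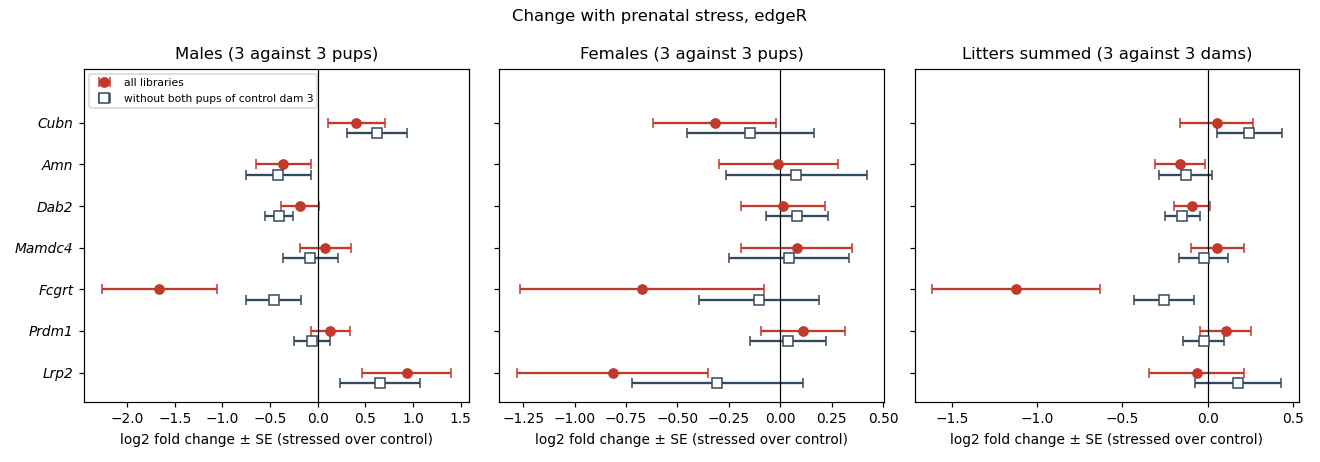
Log2 fold change of stressed over control ± SE (edgeR) for each of the 7 genes in males, females and summed litters, with all libraries (filled circles) and without both pups of control dam 3 (open squares). The Fcgrt value in males is -0.46 without those pups and -1.66 with all libraries, and the other genes stay within about 1 log2 unit of 0.

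Males were compared with females over both treatments, which asks how the machinery differed between the sexes at this age. edgeR called 0 of the 7, where it called 0.0497% of all genes (8 of 16102). Unadjusted, it had 1 of the 7 under 0.05 (Cubn), beside 12% of all genes. DESeq2 and limma-voom had 3 each, beside 13.9% and 11.5% of all genes. Cubn averaged 68.4 ± 21.5 FPKM in males and 49.9 ± 10.7 FPKM in females (SD, n = 6 each; 0.52 ± 0.21 on the log2 scale, edgeR adjusted p = 0.411). Amn averaged 161 ± 61.5 FPKM in males and 226 ± 19.3 FPKM in females (-0.44 ± 0.21, edgeR adjusted p = 0.411). Mamdc4 averaged 497 ± 173 FPKM in males and 678 ± 60.1 FPKM in females (-0.39 ± 0.19, edgeR adjusted p = 0.413). The remaining genes lay between -0.18 ± 0.14 (Dab2) and 0.16 ± 0.42 (Fcgrt). All 3 libraries that were rich in long transcripts were male. With length correction, chosen after seeing the data, the Cubn value was 0.16 ± 0.18. The part of the length trend in the difference between the sexes was not tested. Without stressed male 2, Amn passed, at -0.66 ± 0.15 (edgeR adjusted p = 0.0368), in a fit that called 1384 of all genes.

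The profiles of the 7 genes over the 12 libraries did not run together as one group. Likeness was measured as the mean absolute difference between profiles of log2 CPM, each centred on its own mean, among 11750 genes of at least 5 CPM; it describes libraries that differ in sex, treatment, litter and length trend. The nearest pairs were Dab2 and Mamdc4, at 0.20, and Amn and Mamdc4, at 0.21. From Mamdc4, Dab2 ranked 823 and Amn 1034 of 11750, and Mamdc4 ranked 930 from Amn but 3027 from Dab2. Cubn and its partner Amn were not, at 0.62, where the median gene lay 0.39 from Cubn and Amn ranked 10927. From Cubn, Prdm1 ranked 5497, Lrp2 9282, Dab2 9366, Mamdc4 10762 and Fcgrt 10840. Without both pups of control dam 3, Fcgrt lay 0.19 from Amn (rank 755) and Amn lay 0.18 from Mamdc4, while Cubn still lay 0.66 from Amn. In those 10 libraries Prdm1 ranked 2630 and Lrp2 4254 from Cubn, with Lrp2 at 0.34 nearer than the median gene at 0.38. Mamdc4 lay 0.22 from Dab2 in them (rank 5916), and the median gene also lay 0.22 from Dab2.

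**Figure D4:**
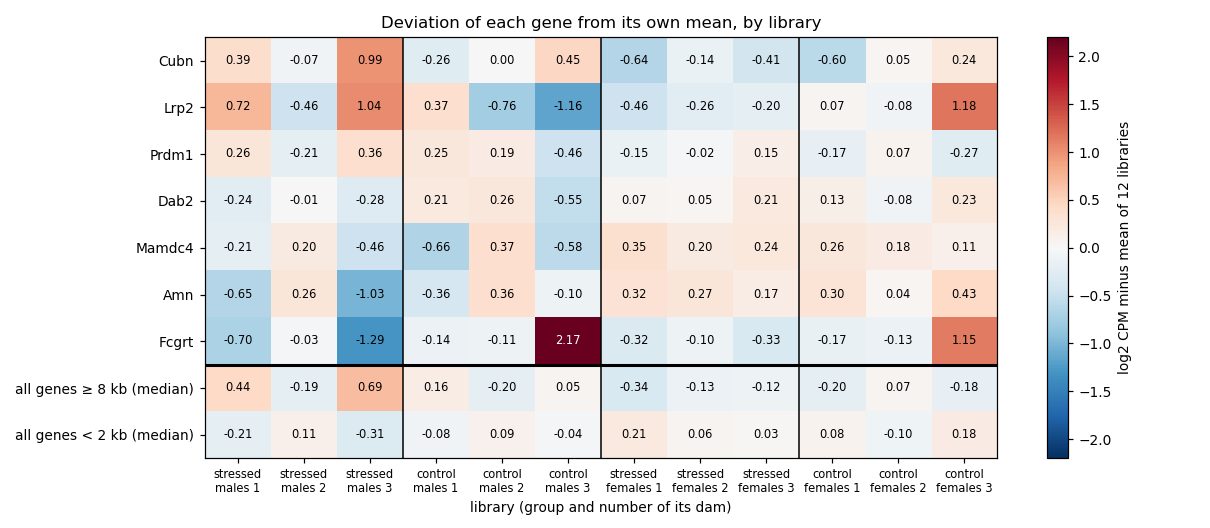
Deviation of each gene's log2 CPM from its own mean of the 12 libraries (colour and printed value, red higher and blue lower), with genes in rows and, below the heavy line, the median deviation of all genes of at least 8 kb and of all genes under 2 kb. Cubn and Lrp2 are high and Amn and Fcgrt low in stressed males 1 and 3, where long genes as a whole are high (0.44 and 0.69) and short genes low (-0.21 and -0.31). In control male 1, where long genes are at 0.16, Lrp2 is at 0.37 but Cubn at -0.26.

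The genes nearest to Cubn over 12 libraries were Thrb (a thyroid hormone receptor, 0.0863), Ralgapa2 (0.109), Farp2 (0.109), Itpr3 (an inositol trisphosphate receptor, 0.113), Sh3rf1 (0.113), Pcsk5 (a proprotein convertase, 0.114), Slc26a2 (a sulfate transporter, 0.121) and Usp9x (a deubiquitinase, 0.122). These 8 genes have lengths in the files of 3937 to 11887 bases. Over the 10 libraries without control dam 3 the nearest were Thrb (0.0784), Map3k13, Lrrc8b, Epg5, Gm608, Sorl1 (a sorting receptor of the endosome), Farp2 and Arap2 (0.109). Thrb and Farp2 were in both sets of 8.

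The wider uptake route was described with lists of its components: 20 genes of the clathrin coat and its adaptors, 20 of early and recycling endosomes, 15 of the lysosome and 10 related uptake receptors, with 6 enterocyte genes typical of the time before weaning and 8 of the time after it (Glb1 is in the lysosome list too). No gene of any list passed in any comparison, as for the members. Of the 78 different genes edgeR had 13 (16.7%) at an unadjusted p under 0.05 in males, 0 in females and 1 over dams, beside 6.38%, 0.298% and 1.36% of all genes. DESeq2 had 13, 0 and 3, beside 7.06%, 0.304% and 1.37% of all genes, and limma-voom had 10, 0 and 0, beside 5.39%, 0.329% and 1.21%, with none called. Of the 13 that edgeR had in males, 4 were in the post-weaning list. In the difference edgeR had 0, beside 2.15% of all genes, and in males against females 13 (16.7%), beside 12%. The lists were chosen with earlier results of these data known, so these shares are not an independent test.

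The sum of the clathrin list was level across the groups, from 962 to 1002 FPKM in stressed pups and from 962 to 1015 FPKM in control pups. At an unadjusted p under 0.05 edgeR had 4 of its 20 genes in males (20%), 0 in females and 0 over dams. The shares of all genes were 6.38%, 0.298% and 1.36%. Over dams 8 members lay above 0 and 12 below, with a median log2 fold change of -0.03 against 0.00 for all genes. The light chain Clta had 80.5, 122 and 144 FPKM as lowest, median and highest of 6 stressed pups, against 100.2, 123 and 137 FPKM in controls. Epn1, an epsin of the coated pit, had 92.4, 105 and 114 FPKM in stressed pups against 103, 121 and 137 FPKM in controls, and -0.25 ± 0.11 over dams. Ap2s1, the small subunit of the AP-2 adaptor, gave -0.23 ± 0.14 over dams and -0.54 ± 0.25 in males. Of the partners of this receptor family, the chaperone Lrpap1 ran from 15.6 to 26.5 FPKM in stressed and 15.6 to 27.7 FPKM in control pups. Clcn5, an endosomal chloride transporter that the kidney needs for uptake by megalin and cubilin, was highest in stressed male 3 (91.2 FPKM), stressed male 1 (67.3 FPKM) and control male 1 (56.3 FPKM), the libraries rich in long transcripts.

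In the endosome list 3 genes lay above 0 and 17 below over dams, but by little: the median was -0.03. For males the list had 8 above and 12 below, with a median of -0.05. At an unadjusted p under 0.05 edgeR had 4 of these 20 genes in males (20%), beside 6.38% of all genes, and 0 in females and over dams. Rab5c, a GTPase of early endosomes, had 114, 187 and 205 FPKM as lowest, median and highest in stressed pups, against 174, 195 and 235 FPKM in controls (-0.26 ± 0.14 over dams). Rab4a, of fast recycling, gave -0.26 ± 0.12, Rab8a, of apical traffic, -0.25 ± 0.13, and Rab7, of late endosomes, -0.03 ± 0.10. Without control dam 3 the list stood at 7 above and 13 below, with a median of -0.01.

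Lysosomal genes had 3 above and 12 below 0 over dams (median -0.09), 1 above and 14 below in males (median -0.13) and 8 above and 7 below in females (median 0.03). The summed FPKM of the 15 genes was 2109 to 4595 in stressed males, 4304 to 4793 in stressed females, 2980.0 to 4638 in control males and 4059 to 5700.2 in control females, with the lowest value in stressed male 3. Cathepsin L (Ctsl), a protease of the lysosome, had 289, 605 and 848 FPKM as lowest, median and highest of the stressed pups, against 514, 655 and 1683 FPKM in controls, the highest in control female 3. Cathepsin Z (Ctsz) had 278, 666 and 695 FPKM against 442, 633 and 863 FPKM. Without control dam 3 all 15 lysosomal genes lay below 0 in males (median -0.38), and 13 of 15 above 0 in females (median 0.06). Without the 3 Yam1-rich libraries the values in males were 14 above and 1 below 0 (median 0.21). That fit leaves 1 stressed male and keeps control male 3 among the controls. No test of the list was made and no gene in it passed.

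The lists on either side of weaning gave the widest values, and these moved with control dam 3. The post-weaning list had a median of -1.74 in males (1 above, 7 below), -0.57 in females (8 below) and -0.86 over dams (7 of 8 tested, 1 above, 6 below). Sucrase-isomaltase (Sis), the disaccharidase that appears at weaning, had 1.43, 1.63 and 3.14 FPKM as lowest, median and highest in stressed pups, against 0.597, 2.205 and 146 FPKM in controls. Trehalase (Treh) had 0.416, 1.26 and 2.22 FPKM against 0.868, 1.64 and 42.6 FPKM. The galectin Lgals2 had 179, 257 and 310.0 FPKM against 96.0, 275 and 498 FPKM. Without control dam 3 the median of this list was 0.27 in males and 0.10 over dams. Among the pre-weaning genes, Ass1, of arginine synthesis, had 130.0, 198 and 218 FPKM in stressed against 196, 211 and 327 FPKM in control pups, and Lct gave -2.21 ± 1.00 over dams, its highest values those of control dam 3 given above. The pre-weaning median was -0.30 over dams, and -0.08 without that dam.

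Related receptors showed no common direction over dams (6 above, 4 below, median 0.03). Pigr, which carries IgA across the epithelium, had 61.1, 76.4 and 111 FPKM as lowest, median and highest in stressed pups against 47.8, 93.2 and 233 FPKM in controls. Cd320, the receptor through which cells take up vitamin B12 bound to transcobalamin, had 3.63, 4.37 and 4.52 FPKM against 2.55, 3.76 and 4.03 FPKM, a log2 fold change of 0.21 ± 0.15 over dams. Without control dam 3, 9 of the 10 receptors lay above 0 over dams, with a median of 0.12.

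**Figure D5:**
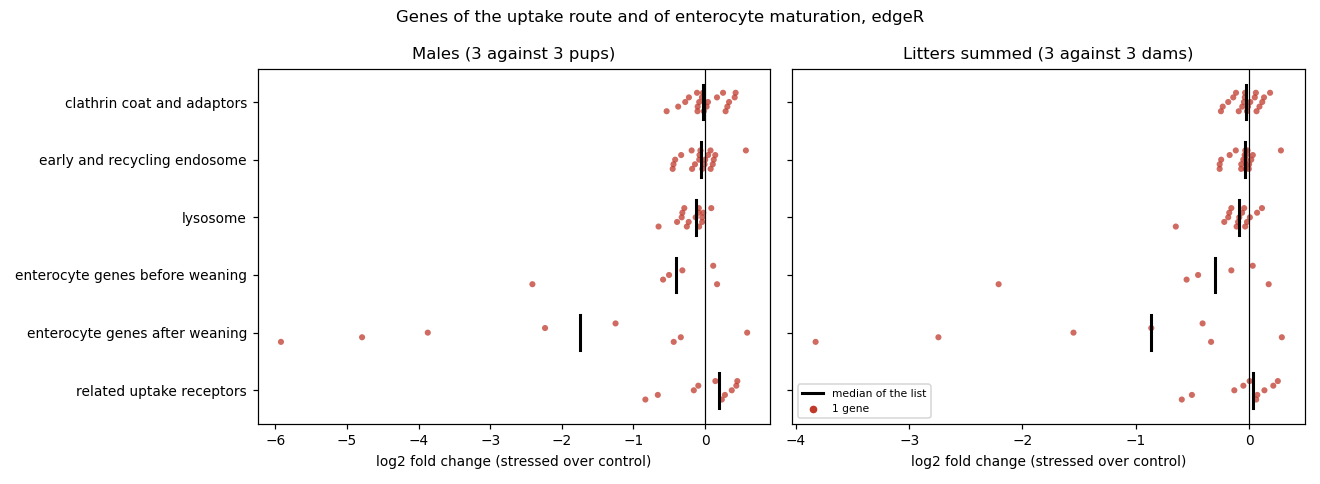
Log2 fold change of stressed over control (edgeR) for each gene of the 6 lists (points) with the median of the list (black bar), in males and over summed litters. The medians of the clathrin, endosome and lysosome genes lie below 0 by 0.13 or less, with 14 of 15 lysosome genes below 0 in males, and the genes typical of the time after weaning reach the lowest values, with a median of -1.74 in males and -0.86 over dams.

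The authors' deposited table of comparisons gives log2 fold changes of the same sign as edgeR for all 7 genes in both sexes, and nearer to 0 for all but Amn in females. For Fcgrt the authors' deposited table lists a log2 fold change of -0.69 in males with no p-value, -0.14 in females, and -0.46 over both sexes with an adjusted p-value of 1.00. For Lrp2 the authors' deposited table has 0.46 in males and -0.31 in females, with an adjusted p-value of 1 in females. For Cubn the authors' deposited table has 0.26 in males and -0.18 in females.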

How the data were processed

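Total RNA of 12 ileal samples was sequenced. The deposited table of counts holds raw read counts per gene, and the deposited FPKM values are the counts scaled by length and by total (checked for all 240813 nonzero counts, within 1e-06). The authors' table of comparisons holds, per the file headers, log2 fold changes and p-values, raw and adjusted. Per the submitters' processing notes the builds were GRCm38 and mm10 and the tools STAR 2.5, TopHat, edgeR 3.16.5, DESeq2 and HTSeq 0.6.1; strandedness and annotation release are not given in the sources used here. Reads of overlapping or antisense genes may therefore be mixed. Library totals ran from 16423523 to 22975526 counts.

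Counts were tested by the quasi-likelihood method of edgeR 4.0.16 in R 4.3.3 (filterByExpr, TMM scaling, Benjamini-Hochberg adjustment over all genes, threshold 0.05). A fit of 4 groups (16102 genes, 8 residual degrees of freedom) gave the comparisons of pups, and a fit of counts summed by dam (16749 genes, 4 residual degrees of freedom) the comparison of 3 against 3 dams. Profiles used log2 CPM with a prior count of 2. The edgeR test of males was also run on simulated counts with known changes, and it missed part of these changes. Alternatives were DESeq2 1.42.0, limma-voom (limma 3.58.1), median-ratio factors, no filter, 1 sex alone, a block for the dam number (for the dam, in comparisons between sexes), 12 pups with sex as a covariate, and fits without single libraries, without both pups of control dam 3 and without the 3 libraries rich in Yam1. A loess correction for gene length (span 0.5, genes of at least 1 CPM) was chosen after seeing the data.

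The members, the gene lists and the tests were chosen with earlier results of these data known. All members are named. From each list the 2 genes of highest mean FPKM and the 2 of smallest unadjusted p over dams are named, except for items not reported here; Lrpap1, Clcn5, Fabp1, Fabp6, Slc6a14, Gata4 and Yam1 were added after their values were seen. The 8 genes nearest to Cubn are named. Per the labels the pup's number is that of its dam, and this pairs littermates where both sexes are compared. The correlation of their deviations from the group means ran from -0.48 to 0.59, so the pairing rests on the labels. Promoter sequences come from RefSeq (GRCm38.p6), and all 7 genes were matched by symbol; promoters of chromosome 18 were left out of the background.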

Additional observations from a re-analysis of the deposited data

How the results depend on the processing

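No member was called in any comparison under any alternative except 1: the leave-one-out fits of males against females called 0 to 1 members (Amn without stressed male 2), and those of the other comparisons called 0. Of the 707 alternative values for single genes 626 kept their side of 0 and of the threshold. Values that turned round are given here, and the cause was not tested. Median-ratio factors turned Mamdc4 in the difference between sexes to -0.00864 and Lrp2 in males against females to 0.00662, as did DESeq2 (-0.00864 and 0.00624), and no filter turned that Mamdc4 value to -0.00477. For Fcgrt in males against females limma-voom gave -0.025 and the replicate block -0.030. For Lrp2 over dams, 12 pups with sex as a covariate gave 0.051. Without both pups of control dam 3, values of the other sign were in males -0.077 (Mamdc4) and -0.060 (Prdm1), in females 0.079 (Amn), in the difference -0.12 (Mamdc4) and -0.097 (Prdm1), in males against females -0.15 (Fcgrt) and 0.40 (Lrp2), and over dams -0.023 (Mamdc4), -0.022 (Prdm1) and 0.18 (Lrp2). Without the 3 Yam1-rich libraries, which leaves 1 stressed male that is assumed to vary like the other groups, they were in males -0.32 (Cubn), 0.11 (Amn), 0.084 (Dab2) and -0.11 (Prdm1), in the difference 0.12 (Amn), 0.070 (Dab2) and -0.22 (Prdm1), and in males against females -0.096 (Prdm1). Length correction turned Cubn to -0.0062 in males and -0.093 over dams, and in the difference Mamdc4 to -0.044 and Prdm1 to -0.14. With length correction and without control dam 3 they were in males -0.12 (Mamdc4) and -0.19 (Prdm1), in females 0.041 (Cubn) and 0.010 (Amn), in the difference -0.20 (Mamdc4) and -0.30 (Prdm1), in males against females -0.087 (Fcgrt), and over dams -0.017 (Mamdc4), -0.040 (Prdm1) and 0.030 (Lrp2).

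With each library or dam left out in turn, ranges that crossed 0 were in females -0.13 to 0.082 (Amn) and -0.085 to 0.083 (Dab2), in males -0.14 to 0.47 (Mamdc4) and -0.060 to 0.27 (Prdm1), and over dams -0.13 to 0.25 (Cubn), -0.28 to 0.18 (Lrp2), -0.023 to 0.20 (Mamdc4) and -0.022 to 0.21 (Prdm1). In the difference they were -1.56 to 0.21 (Fcgrt), -0.20 to 0.41 (Mamdc4) and -0.17 to 0.18 (Prdm1), and in males against females -0.43 to 0.45 (Fcgrt) and -0.30 to 0.25 (Lrp2). Fcgrt in males ran from -2.07 to -0.46, the end nearer 0 without control male 3. The replicate block called 0 members in every comparison. In males against females and in the difference the block was the dam itself, so littermates were paired (males against females: Cubn 0.50, Amn -0.51, Dab2 -0.20). In the other comparisons it was the dam number, which stressed and control dams share only as a number, and it gave -1.30 for Fcgrt in males. The fit without the Yam1-rich libraries was not run over dams. With 3 against 3 samples only large changes can pass. Of the 7 genes Lrp2 had the fewest reads (74 to 530 per library), and Fcgrt had the largest SE in each comparison.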
